A study of Rattus norvegicus with 12 samples.

Results

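The genes described here are 4 receptor tyrosine kinases that nintedanib is known to inhibit, Kdr, Flt1, Fgfr1 and Pdgfrb, and Vegfa, the ligand of Kdr and Flt1. They are 5 of the 32623 Ensembl gene identifiers in a table of read counts from rat lung, and were chosen by identifier: ENSRNOG00000046829 (Kdr), ENSRNOG00000000940 (Flt1), ENSRNOG00000016050 (Fgfr1), ENSRNOG00000018461 (Pdgfrb) and ENSRNOG00000019598 (Vegfa). The symbols came with that choice, not from the count table. All 5 were among the 14956 genes with enough reads to be tested. Counts came from QuantSeq FWD libraries, in which each read lies near the 3′ end of a polyadenylated transcript, and 1 library was made from the homogenised right lung of each of 12 male Sprague-Dawley rats, 4 per group. SAL rats had saline instilled into the trachea on day 0 and day 4 and methylcellulose, the oral vehicle, every day from day 7 for 3 weeks. BLM rats had bleomycin (1 U/kg) instilled on the same days and the same oral vehicle. NINT rats had the same bleomycin and oral nintedanib at 100 mg/kg in place of the vehicle. All rats were killed on day 28, so that bleomycin is common to BLM and NINT and only the oral agent differs between them. Ages are not given in the labels.

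Nintedanib occupies the ATP-binding pocket of the VEGF, PDGF and FGF receptors and so blocks their signalling, and it is used to treat idiopathic pulmonary fibrosis. In lung, Kdr and Flt1 are expressed mainly by endothelial cells, Pdgfrb by pericytes, smooth muscle cells and some fibroblasts, and Fgfr1 by several mesenchymal and other cell types, while Vegfa is made largely by alveolar epithelial cells. Kdr carries most of the VEGF signal for endothelial growth and survival. Flt1 binds Vegfa more tightly with weaker kinase activity, and its soluble form acts as a decoy; the counts here are per gene and do not separate the forms. An mRNA count also says nothing of the receptors' kinase activity, which is what the drug inhibits.

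RefSeq promoter windows on the rat build GRCr8 were sought by symbol for all 5 genes and are shown for the 3 that had one, Kdr, Flt1 and Vegfa. No window was listed for Fgfr1, which was also lower after bleomycin, or for Pdgfrb. A relation of the motifs to the fall after bleomycin was not tested. Each sequence is the 250 bases before the listed start, 5′ to 3′ on the plus strand. Capitals mark matches, on either strand, to the GC box GGGCGG, the hypoxia-response core ACGTG or GCGTG, the cyclic AMP response element TGACGTCA and the TATA box TATAAA.
Kdr, chr14:32571813-32572062: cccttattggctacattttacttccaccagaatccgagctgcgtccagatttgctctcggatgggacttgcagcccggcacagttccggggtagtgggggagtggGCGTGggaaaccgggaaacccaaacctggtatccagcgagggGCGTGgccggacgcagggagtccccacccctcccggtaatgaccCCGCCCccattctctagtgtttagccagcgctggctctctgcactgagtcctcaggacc
Flt1, chr12:12333180-12333429: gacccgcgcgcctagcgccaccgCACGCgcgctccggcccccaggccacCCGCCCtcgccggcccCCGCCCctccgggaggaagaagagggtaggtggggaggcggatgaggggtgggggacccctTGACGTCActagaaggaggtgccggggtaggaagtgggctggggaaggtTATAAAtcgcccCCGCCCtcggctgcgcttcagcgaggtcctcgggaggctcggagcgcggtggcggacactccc
Vegfa, chr9:22452604-22452853: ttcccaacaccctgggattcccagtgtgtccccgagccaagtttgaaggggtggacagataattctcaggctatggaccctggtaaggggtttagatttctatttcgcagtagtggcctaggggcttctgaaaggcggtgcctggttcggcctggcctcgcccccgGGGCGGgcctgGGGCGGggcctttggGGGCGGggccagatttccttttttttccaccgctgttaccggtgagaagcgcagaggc
The GC box was found in all 3 windows, 1 match in Kdr and 3 each in Flt1 and Vegfa, and in 30.5% of the 33469 windows of the same length in the RefSeq table. The GC content was 61.6% for Kdr, 73.2% for Flt1 and 60.4% for Vegfa. The shares over all windows, here and below, are not matched for GC content and cannot show an enrichment. GCGTG was found at 2 places in Kdr and 1 in Flt1 (25.9% of windows), and ACGTG in none of the 3 (16.6% of windows). The Flt1 window alone held TGACGTCA (1.59% of windows) and TATAAA (12.9% of windows). A second listed Vegfa start, with the window chr9:22460028-22460277, held none of these motifs. A match describes letters in a window and is not evidence of binding. Sequence outside these windows was not searched, so the lack of a match does not mean that a gene has no such site.

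Total counts per library ranged from 16572004 to 21719946. BLM replicate 3 stood apart from its group. Measured over all tested genes except these 5, its root mean square distance from the SAL mean in log2 CPM (counts scaled to a normalized library total of 1000000) was 1.15, against 0.86 in BLM replicate 4, 0.61 in BLM replicate 1 and 0.52 in BLM replicate 2. The NINT animals lay at 0.48 to 0.58 and each SAL animal at 0.33 to 0.41 from the mean of the other SAL animals. Results that involve BLM are therefore given with and without BLM replicate 3. Marker genes of lung cell types were not analysed here, because 0 of the identifiers matched a symbol in the reference table used, so the tissue label was not checked against markers. In homogenised lung, fewer cells of a type and less RNA per cell cannot be told apart.

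After bleomycin and vehicle, mRNA of Kdr, Flt1, Fgfr1 and Vegfa was lower than in saline animals. Vegfa fell by 33.7%, Flt1 fell by 42.8%, Kdr fell by 47.1% and Fgfr1 fell by 63.6%, while the Pdgfrb level overlapped that of saline animals. The Fgfr1 estimate was imprecise (95% interval -2.27 to -0.65 on the log2 scale). Without BLM replicate 3 the falls were smaller, with log2 fold changes of -0.49 (Vegfa), -0.69 (Flt1), -0.71 (Kdr) and -1.12 (Fgfr1). With nintedanib no difference from BLM was detected for the first 4 genes, with a wide interval for Fgfr1. Pdgfrb fell below both other groups, but its call against BLM held in only 15 of 22 alternative analyses. Some of those 15 left out only a SAL animal, and the call was lost when any NINT animal was left out. Levels are CPM after TMM normalization, and the value of every library is shown in the plot of CPM by group. Differences were tested with edgeR's quasi-likelihood test over all 14956 genes, with Benjamini-Hochberg adjustment, and "called" means an adjusted p under 0.05.

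**Figure D1:**
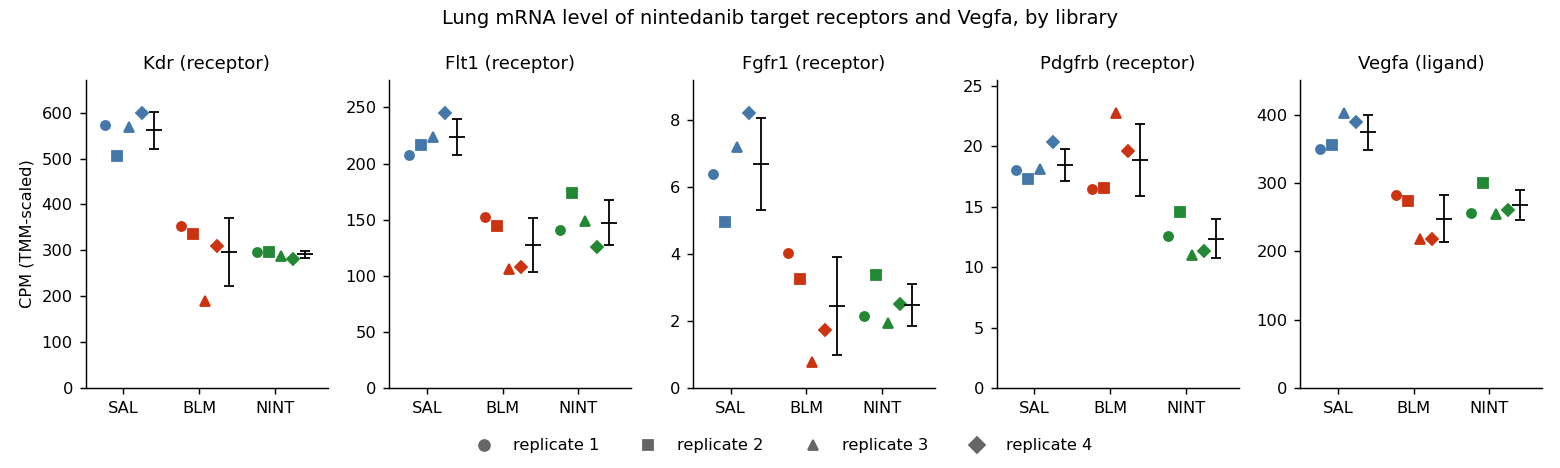
Level of each gene in CPM (y axis, linear, from 0; scales differ between panels) in the 4 SAL, 4 BLM and 4 NINT libraries. Symbols are single animals and black bars the mean ± SD. For Kdr, Flt1, Fgfr1 and Vegfa all SAL animals lie above all BLM and NINT animals, and for Pdgfrb all NINT animals lie below all others.

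Kdr, the main signalling receptor for Vegfa, stood at 572, 505, 569 and 599.6 CPM in SAL replicates 1 to 4. In BLM replicates 1 to 4 it stood at 353, 336, 190.0 and 309 CPM. In NINT replicates 1 to 4 it stood at 297, 297, 289 and 281 CPM. The lowest SAL animal was thus above the highest animal given bleomycin, and BLM replicate 3 was the lowest of the 12 libraries. Means for SAL, BLM and NINT were 561 ± 40.3, 297 ± 73.7 and 291 ± 7.83 CPM (SD, n = 4 each). The NINT animals differed little among themselves, with a coefficient of variation of 2.69%, against 24.8% in BLM and 7.17% in SAL. Without replicate 3 the BLM mean was 333 ± 22.6 CPM (SD, n = 3), and its coefficient of variation 6.78%. The BLM level differed from that in SAL by -0.92 on the log2 scale (SE 0.15, edgeR adjusted p = 0.00135), a level 52.9% of that in SAL.

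Flt1, the high-affinity Vegfa receptor, stood at 207, 217, 224 and 245 CPM in SAL replicates 1 to 4. It stood at 153, 144, 106 and 108 CPM in the BLM animals in the same order. The NINT animals stood at 141, 174, 149 and 126 CPM. BLM and NINT overlapped, with NINT replicate 2 the highest of these 8, and neither group reached the lowest SAL animal. Group means were 223 ± 16.1 CPM (SAL), 128 ± 24.3 CPM (BLM) and 147 ± 20.2 CPM (NINT) (SD, n = 4 each); the BLM mean was 135 ± 23.7 CPM without replicate 3 (SD, n = 3). Its log2 fold change from SAL to BLM, -0.81, was called (SE 0.13, edgeR adjusted p = 0.00137).

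Vegfa, the ligand, stood at 349.6, 355, 403 and 389 CPM in SAL replicates 1 to 4. The BLM animals held 283, 273, 218 and 218 CPM. The NINT animals held 256, 300.4, 254 and 260.3 CPM. The ligand was thus lower in every animal given bleomycin than in any saline animal, and 3 of the 4 NINT animals lay between the lower and the higher pair of BLM animals. Group means were 374 ± 25.9 CPM (SAL), 248 ± 34.8 CPM (BLM) and 268 ± 21.9 CPM (NINT) (SD, n = 4 each); without replicate 3 the BLM mean was 258 ± 34.7 CPM (SD, n = 3). The change from SAL to BLM was -0.59 on the log2 scale (SE 0.10, edgeR adjusted p = 0.00168).

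Fgfr1, a receptor for fibroblast growth factors, had the fewest reads of the 5 genes, from 17 to 157 per library. It stood at 6.38, 4.97, 7.197 and 8.21 CPM in SAL replicates 1 to 4. The BLM animals stood at 4.02, 3.25, 0.787 and 1.73 CPM. The NINT animals stood at 2.16, 3.37, 1.94 and 2.50 CPM. No animal given bleomycin reached the lowest saline animal. Counting error is wide at this depth: the exact 95% Poisson interval, which covers counting error only, was 3.18 to 5.02 CPM for BLM replicate 1 and 4.01 to 6.08 CPM for SAL replicate 2, so that this closest pair was not separated. Group means were 6.69 ± 1.37 CPM (SAL), 2.45 ± 1.46 CPM (BLM) and 2.49 ± 0.626 CPM (NINT) (SD, n = 4 each). The BLM mean without replicate 3 was 2.999 ± 1.16 CPM (SD, n = 3). Its change from SAL to BLM was -1.46 on the log2 scale (SE 0.38, edgeR adjusted p = 0.010), which was lower than that of all but 4.91% of the genes tested.

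Pdgfrb, the PDGF receptor of pericytes and related mesenchymal cells, had 199 to 492 reads per library. It stood at 18.1, 17.3, 18.1 and 20.4 CPM in SAL replicates 1 to 4. The BLM animals stood at 16.5, 16.6, 22.8 and 19.6 CPM, on both sides of the SAL range. The NINT animals stood at 12.6, 14.5, 11.01 and 11.3 CPM, each below all 8 animals of the other groups. The closest pair was not separated by counting error. The 95% Poisson interval was 13.0 to 16.2 CPM for NINT replicate 2 and 14.7 to 18.4 CPM for BLM replicate 1. Group means were 18.5 ± 1.31 CPM (SAL), 18.9 ± 2.99 CPM (BLM) and 12.4 ± 1.60 CPM (NINT) (SD, n = 4 each), and 17.5 ± 1.78 CPM in BLM without replicate 3 (SD, n = 3). In BLM against SAL the log2 fold change was 0.03 (95% interval -0.24 to 0.30, edgeR adjusted p = 0.861); it turned to -0.0054 when libraries were scaled by total count alone and to -0.03 without BLM replicate 3.

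In BLM against SAL, 4 of the 5 genes were called, all lower, and for the same 4 the BLM and SAL animals did not overlap. Of all genes tested, 40.8% were called in this comparison (22.4% lower), and for 37.4% the groups did not overlap (21.2% lower). Bleomycin thus went with a change in a large part of the transcriptome, and a call among these genes is not unusual against that background. The median log2 fold change of the 5 genes was -0.81, and that of all genes tested was 0.0019. Without BLM replicate 3 the log2 fold changes were -0.71 for Kdr, -0.69 for Flt1, -1.12 for Fgfr1 and -0.49 for Vegfa. All 4 were still called (edgeR adjusted p = 7.55e-05, 0.00198, 0.00857 and 0.00262), as they were in each of the 22 alternative analyses. Of the 15150 genes tested without that animal, 35.9% were called (18.4% lower).

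In animals given bleomycin, the effect of nintedanib was read from NINT against BLM. Pdgfrb was the only one of the 5 genes called, with a log2 fold change of -0.61 (SE 0.13; 95% interval -0.88 to -0.33, edgeR adjusted p = 0.0299), and so fell by 34.4% on the linear scale. Of all genes tested 5.83% were called here (3.46% lower), and for 16.0% the NINT and BLM animals did not overlap (9.68% lower). The fall in Pdgfrb was lower than the log2 fold change of all but 5.26% of genes. Its direction was the same in all 22 alternative analyses, with log2 fold changes of -0.70 to -0.50, but 15 of the 22 called it. Without BLM replicate 3 it was -0.50 and called (edgeR adjusted p = 0.0469), in a fit that called 1.80% of genes (0.924% lower). The call was lost without BLM replicate 4 (edgeR adjusted p = 0.0540) or without NINT replicate 1, 2, 3 or 4 (edgeR adjusted p = 0.0554, 0.0646, 0.0763 and 0.06001). It was also lost in a fit of the BLM and NINT libraries alone (edgeR adjusted p = 0.0954; 0.193% of genes called) and with the replicate number as a block (edgeR adjusted p = 0.0531).

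For the other 4 genes no difference between NINT and BLM was detected, and the intervals set how large one could be. Kdr differed by -0.03 on the log2 scale (95% interval -0.35 to 0.29, edgeR adjusted p = 0.909). Flt1 differed by 0.21 (95% interval -0.08 to 0.49, edgeR adjusted p = 0.304) and Vegfa by 0.11 (95% interval -0.11 to 0.33, edgeR adjusted p = 0.479). For Fgfr1 the difference was 0.04 with a wide interval of -0.80 to 0.87 (edgeR adjusted p = 0.957). BLM and NINT animals overlapped for all 4 genes. For Kdr the overlap rested on BLM replicate 3 alone. The other BLM animals stood at 309 to 353 CPM, above all NINT animals at 281 to 297 CPM. The share of all genes with no overlap when that animal is left out was not computed. Without BLM replicate 3 the differences were -0.18 for Kdr, 0.14 for Flt1, 0.06 for Vegfa and -0.25 for Fgfr1, none of them called (edgeR adjusted p = 0.161, 0.534, 0.725 and 0.625).

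**Figure D2:**
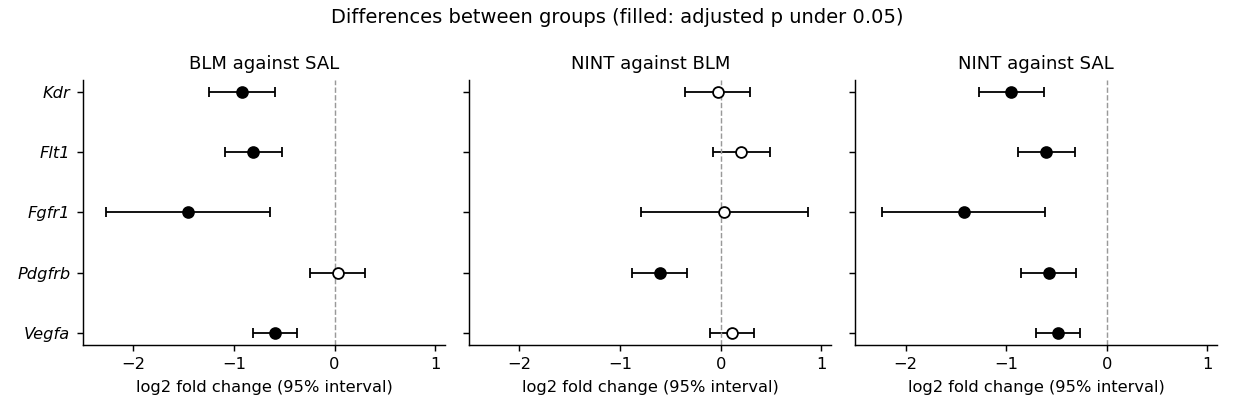
Log2 fold change of each gene (x axis) in the 3 comparisons, with a 95% interval derived from the F statistic of edgeR's quasi-likelihood test. Filled points were called at an adjusted p under 0.05. For the 4 genes called in BLM against SAL, the interval in NINT against BLM includes 0. Pdgfrb is the called gene there, and all 5 are below 0 in NINT against SAL.

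What still separated nintedanib-treated from saline animals was read from NINT against SAL. All 5 genes were called, all lower, and for each the NINT and SAL animals did not overlap. Of all genes tested 9.30% were called (5.05% lower) and 28.4% had no overlap (17.8% lower). The calls comprised 635 genes higher and 756 lower, or 507 and 1088 when scaled by total count alone. The log2 fold change was -0.95 for Kdr (SE 0.15, edgeR adjusted p = 0.00286) and -1.42 for Fgfr1 (SE 0.37, edgeR adjusted p = 0.0333). It was -0.60 for Flt1 (SE 0.13, edgeR adjusted p = 0.0151), -0.58 for Pdgfrb (SE 0.13, edgeR adjusted p = 0.0153) and -0.48 for Vegfa (SE 0.10, edgeR adjusted p = 0.0123). Fgfr1 thus stood at 37.4% and Kdr at 51.9% of the SAL level, and only 1.20% of genes had a lower log2 fold change than Fgfr1. This comparison and that of BLM against SAL share the SAL animals, so their values for the 5 genes are not independent of each other.

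How firmly these 5 calls stood differed between the genes. Kdr was called in each of the 22 alternatives, with log2 fold changes of -0.999 to -0.85. Vegfa lost its call without SAL replicate 3 or 4 (edgeR adjusted p = 0.0554 and 0.0650). Flt1 lost it without SAL replicate 3, SAL replicate 4 or NINT replicate 4 (edgeR adjusted p = 0.0505, 0.0731 and 0.0507). Pdgfrb lost it without SAL replicate 4, NINT replicate 3 or NINT replicate 4 (edgeR adjusted p = 0.0752, 0.0556 and 0.0505). Fgfr1 was called in 15 of 22. It lost the call without SAL replicate 1, 3 or 4 (edgeR adjusted p = 0.0693, 0.0842 and 0.107), without NINT replicate 1, 3 or 4 (edgeR adjusted p = 0.0891, 0.101 and 0.0822) and with the replicate number as a block (edgeR adjusted p = 0.0508). Its log2 fold change stayed between -1.60 and -1.24. Without BLM replicate 3, whose spread enters the fit of all groups, all 5 were called (edgeR adjusted p of at most 0.00686), where 22.1% of all genes tested were called (11.4% lower). Fitted with the SAL and NINT libraries only, all 5 were also called, with 29.0% of genes called (15.4% lower).

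**Figure D3:**
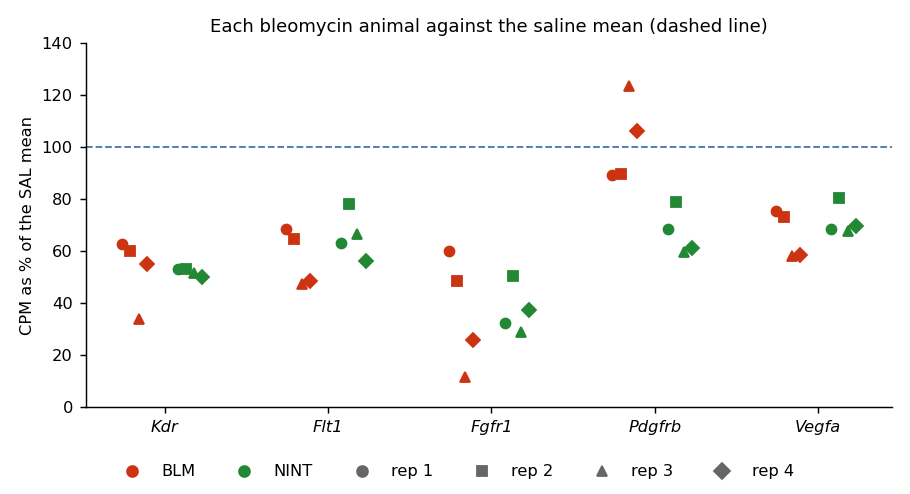
Level of each gene in the 4 BLM and 4 NINT animals as a percentage of the SAL mean (y axis, linear; dashed line, SAL mean at 100). Symbols are single animals, with the shape giving the replicate number. BLM replicate 3 is the lowest animal for Kdr, Flt1, Fgfr1 and Vegfa and the highest for Pdgfrb.

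The levels of the 5 genes were also compared between single BLM animals, as a description of 4 animals with no test. As a percentage of the SAL mean, BLM replicate 3 held 33.8% for Kdr, 47.4% for Flt1, 11.8% for Fgfr1 and 58.2% for Vegfa, but 123% for Pdgfrb. BLM replicate 1 held 62.9%, 68.4%, 60.1% and 75.5% of the SAL mean for the first 4 genes and 89.3% for Pdgfrb. For Kdr, Flt1, Fgfr1 and Vegfa alike the BLM animals ranked replicate 1, 2, 4 and 3 from high to low, and for Pdgfrb exactly the other way. Some neighbours in this order lay within counting error, such as replicates 3 and 4 for Flt1 and Vegfa and replicates 1 and 2 for Pdgfrb. With replicate 3 set aside, replicate 4 was still the lowest BLM animal for the first 4 genes and the highest for Pdgfrb. The BLM animals lowest for Kdr, Flt1, Fgfr1 and Vegfa, replicates 3 and 4, were also farthest from the SAL mean over all other genes (1.15 and 0.86). Replicates 1 and 2 did not follow this. Replicate 1 was higher for these 4 genes, yet its distance was larger (0.61 against 0.52). The part of that distance in the order was not tested.

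Over all groups, deviations of log2 CPM from the group mean were compared between genes as a description of 12 libraries that share groups and scaling. Pearson's r was 0.63 to 0.91 for the 6 pairs among Kdr, Flt1, Fgfr1 and Vegfa, highest for Kdr with Fgfr1 and next for Flt1 with Vegfa (0.90). Such correlations were not computed for other genes, so these values are not read as particular to the 4 genes. Pdgfrb correlated with the other 4 at -0.55 to -0.20. Without BLM replicate 3 the first range was 0.65 to 0.93, while that of Pdgfrb turned to 0.08 to 0.16, so the negative correlation of Pdgfrb over all groups rested on that animal. In NINT, replicate 2 was the highest of its group for Flt1, Fgfr1, Vegfa and Pdgfrb alike.

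Ratios between 2 genes within a library do not depend on how the library is scaled, and were used to ask whether the genes shifted in proportion; they are described without a test. The mean number of Vegfa reads per Kdr read was 0.668 ± 0.0466 for SAL, 0.867 ± 0.192 for BLM and 0.920 ± 0.0663 for NINT (SD, n = 4 each), and 0.774 ± 0.0572 for BLM without replicate 3 (SD, n = 3). All 4 NINT animals (0.862 to 1.01) lay above all SAL animals (0.611 to 0.708), and the lowest BLM animal, replicate 4, was level with the highest SAL animal at 0.708. Flt1 reads per Kdr read averaged 0.398 ± 0.0284 in SAL and 0.505 ± 0.0603 in NINT, again with no overlap. BLM (0.442 ± 0.0853, or 0.404 ± 0.0464 without replicate 3) overlapped both, with 3 of its 4 animals below every NINT animal. Vegfa reads per Flt1 read went from 1.68 ± 0.0912 (SAL) to 1.96 ± 0.0992 (BLM) and 1.83 ± 0.167 (NINT; SD, n = 4 each). All BLM animals (1.85 to 2.06) lay above all SAL animals (1.59 to 1.80), NINT overlapped both, and BLM without replicate 3 stood at 1.92 ± 0.0882 (SD, n = 3). Relative to both its partners of the VEGF axis, Kdr was therefore lower in every NINT animal than in any SAL animal. How often ratios of other gene pairs separate the groups was not computed. Of single genes, 28.4% had no overlap in NINT against SAL and 37.4% in BLM against SAL. A separated ratio, here or below, is therefore not read as particular to these genes.

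Pdgfrb reads per Kdr read came to 0.0329 ± 0.00140 for SAL, 0.0698 ± 0.0342 for BLM and 0.0424 ± 0.00465 for NINT (SD, n = 4 each). The BLM value ranged from 0.0467 to 0.120, the highest in replicate 3, without which the mean was 0.0531 ± 0.00908 (SD, n = 3), and every animal given bleomycin lay above every SAL animal. Fgfr1 reads per Pdgfrb read came to 0.360 ± 0.0538 for SAL, 0.141 ± 0.0961 for BLM and 0.200 ± 0.0307 for NINT (SD, n = 4 each). Here every animal given bleomycin lay below every SAL animal, and BLM replicate 3 was lowest at 0.0346; without it the BLM mean was 0.176 ± 0.0796 (SD, n = 3).

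**Figure D4:**
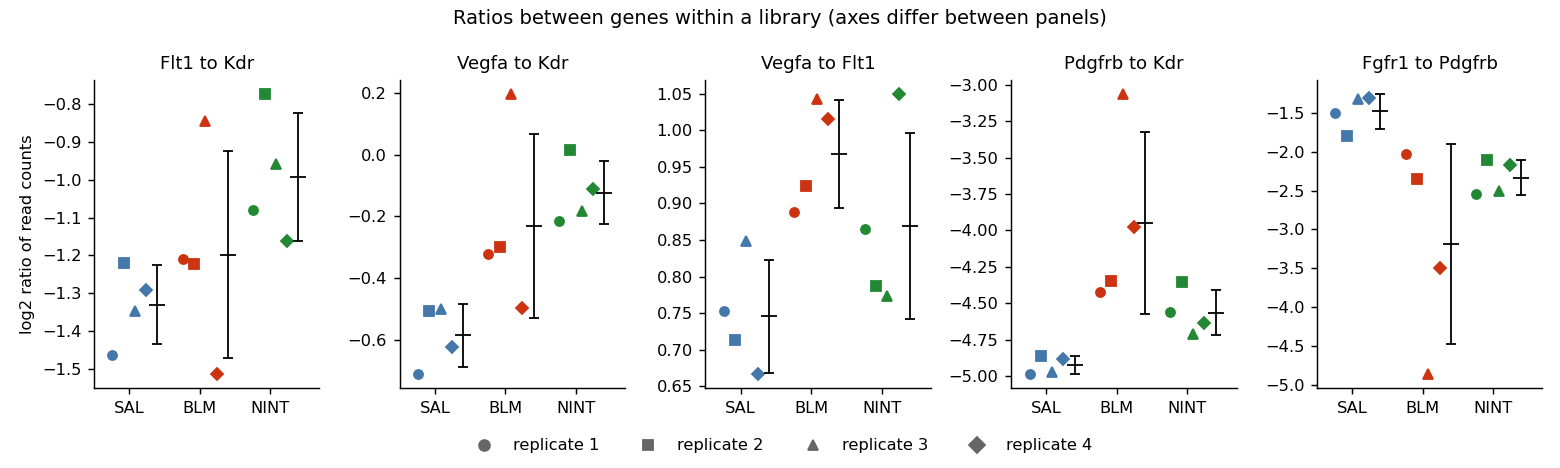
Log2 ratio of read counts of 2 genes in the same library (y axis; scales differ between panels) for the 4 animals of each group, with mean ± SD in black. In Vegfa to Kdr and Flt1 to Kdr all NINT animals lie above all SAL animals, and in Fgfr1 to Pdgfrb all animals given bleomycin lie below all SAL animals.

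The likeness of other genes to each of the 5 was measured by Pearson's r of log2 CPM over the 12 libraries, among 10337 genes with a mean of at least 5 CPM. It is a description, since the libraries share groups. An r above 0.9 was reached by 638 genes for Fgfr1, 477 for Vegfa, 467 for Flt1 and 251 for Kdr, but by 7 genes for Pdgfrb. Without BLM replicate 3 the numbers were 308, 678, 591, 161 and 12, in the same order of genes. The gene nearest to Vegfa was ENSRNOG00000019875 (r = 0.98, Spearman's rho = 0.95), at 109 ± 10.9 CPM (SAL), 69.6 ± 15.9 CPM (BLM) and 73.3 ± 6.74 CPM (NINT) (SD, n = 4 each). The gene nearest to Pdgfrb was ENSRNOG00000014029 (r = 0.93, Spearman's rho = 0.97), at 23.6 ± 2.62 CPM (SAL), 21.9 ± 3.89 CPM (BLM) and 16.8 ± 1.80 CPM (NINT) (SD, n = 4 each). Each of the 4 genes that were lower after bleomycin thus had far more genes above this r than Pdgfrb had. This r includes the differences between groups, and 40.8% of genes were called in BLM against SAL but 5.83% in NINT against BLM. The numbers are therefore not a result apart from those shares.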

How the data were processed

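The authors deposited raw counts, whole numbers of reads per Ensembl gene identifier and animal. The submitters' processing notes name FastQC, STAR, HTSeq and the rn6 build; settings, annotation release and use of strand are not given in the sources used here, so overlapping genes could share reads. Each column was assigned by the title its header matches. The table's 7 unnamed empty columns were not used.

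Analysis used R 4.3.3. Genes were kept by filterByExpr of edgeR 4.0.16 (minimum count 10, minimum total 15). Groups were compared by edgeR's quasi-likelihood test with TMM factors on all 12 libraries, 1 coefficient per group. Alternatives were RLE (DESeq2) factors, library size, upper-quartile factors, 2 other filters, robust estimation, DESeq2 1.42.0, limma 3.58.1 (voom), fits of the 2 groups compared, a replicate block and leaving out each library. No batch is given in the labels. Log2 CPM used a prior count of 2. The edgeR procedure was tested on simulated data for BLM against SAL only, with 200 of 14956 genes changed. It called 73% of the genes changed by 1 on the log2 scale and 91% of those changed by 2. Of its calls 4.09% were false. The simulation gave each gene the same spread in all groups and changed far fewer genes than the 40.8% called in the data. In the data, chi-square divided by its degrees of freedom reached 113 for a pair of BLM libraries and 19.3 for a SAL pair. These rates therefore do not carry over to the data.

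The 5 genes, lists and tests were chosen with earlier results of these data known. By rule the text names these 5 genes and, of the 3 genes most like each, the nearest ones to Vegfa and Pdgfrb only, since 0 of 32623 identifiers matched a symbol. The 16 pathway and marker lists (105 genes) were therefore not run. Libraries are from separate animals, and counts of each pair within a group differed by more than sampling noise (lowest chi-square divided by its degrees of freedom, 9.77).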

Additional observations from a re-analysis of the deposited data

Results flagged for a closer look

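The level of Vegfa in NINT replicate 2, 300.4 CPM, stood far from the other NINT animals, at 254 to 260.3 CPM. The gap was 86.5% of the range of the group. Each gene and each ratio was searched in this way within each group of 4, and 1 of 30 sets held such an animal, where chance gives about 1.5. Without NINT replicate 2 the log2 fold change of Vegfa in NINT against SAL was -0.54 and still called (edgeR adjusted p = 0.0133).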

How the results depend on the processing

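Each of the 15 differences (5 genes in 3 comparisons) was recomputed under 22 alternatives, 330 values in all; 300 kept their direction and their side of the threshold, 22 kept the direction but lost the call and 8 changed sign, the last all for differences that were not called. For Pdgfrb in BLM against SAL the log2 fold change was -0.0054 with library size alone, -0.031 without BLM replicate 3 and up to 0.13 when another library was left out. For Kdr in NINT against BLM it was 0.012 in limma voom and -0.18 to 0.078 when 1 library was left out, and for Fgfr1 -0.25 to 0.40. For Pdgfrb in NINT against BLM it was -0.60 in both the fit of the 2 groups alone and the fit with the replicate block (neither called), and -0.70 to -0.50 when 1 library was left out. In NINT against SAL, leaving out 1 library gave -0.69 to -0.49 for Flt1, -0.66 to -0.46 for Pdgfrb, -1.60 to -1.24 for Fgfr1 and -0.54 to -0.40 for Vegfa, and the replicate block gave -1.47 for Fgfr1 (not called). The cause was not tested.

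Counts of calls over all genes moved more. In NINT against BLM, 872 genes were called, 1960 with DESeq2, 28 in the fit of the 2 groups alone, 370 with the replicate block and 17 (without NINT replicate 2) to 2857 (without BLM replicate 2) when 1 library was left out. In NINT against SAL, 1391 were called, 2295 with DESeq2, 4248 in the fit of the 2 groups alone and 675 (without NINT replicate 3) to 3344 (without BLM replicate 3) when 1 library was left out. In BLM against SAL, 6098 were called and each alternative was within 1.5 times that count. Animals with the same number share only a number: 1 of 12 same-numbered pairs correlated above 0.1 in their deviations (-0.17 to 0.20), and the replicate block changed no other call than those given. Ranked by Spearman's rho, the nearest genes to Flt1 and Pdgfrb stayed first, while those to Kdr, Fgfr1 and Vegfa ranked 99, 40 and 75. Ranked by Pearson's r without BLM replicate 3, none stayed first. The nearest genes to Kdr, Flt1, Pdgfrb, Fgfr1 and Vegfa then ranked 7, 4, 10, 7 and 5. Leaving out BLM replicate 3 from the BLM means, the ratios, these ranks and the counts of genes with r above 0.9 was chosen after seeing the data. Depth limits Fgfr1 most, with 17 to 157 reads per library.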
